A study of Arabidopsis thaliana with 48 samples.

Results

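Transcripts of 47 genes of the UDP-glycosyltransferase (UGT) family were followed in Arabidopsis thaliana roots exposed to the ethylene precursor ACC (1-aminocyclopropane-1-carboxylic acid). The members are all genes whose symbol begins with UGT followed by a number and that have a probe set annotated to that gene alone. Each of the 47 was measured by 1 probe set, out of 22810 on the array. In all, 13350 genes had such a probe set of their own, through 13513 probe sets. A RefSeq gene table lists 58 genes with a symbol of this form. Family members under other names, such as UGT72B1 (listed as GT72B1) and UGT79B1 (listed as UF3GT), are not among the 58. The shares below are therefore those of the 47 genes and not of the whole family. Of the 58, the 11 that were not analysed here are UGT71D1, UGT73B2, UGT73B3, UGT73C6, UGT74E2, UGT74F2, UGT75B1, UGT75B2, UGT84A2, UGT85A1 and UGT89B1.

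UGT enzymes move a sugar from a UDP-sugar onto a small molecule, which usually makes the acceptor more soluble, less reactive and easier to store in the vacuole. In plants the acceptors include auxin, cytokinins, abscisic acid and salicylic acid, along with flavonoids, lignin precursors, glucosinolate intermediates and foreign compounds. The number after UGT names a sequence group. The 47 genes fell into 11 groups, with 9 genes in group 71, 8 in group 76, 7 in group 73, 5 each in groups 84 and 85, 4 in group 72, 3 each in groups 74 and 78, and 1 each in groups 80, 87 and 88. UGT80B1 is a sterol glucosyltransferase and stands outside the clade that holds the other plant groups.

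Seedlings had grown for 6 days under continuous light on a nylon mesh, which was then moved to fresh medium with 1 µM ACC or to fresh control medium without it. Roots were taken within 5 min (0 h) and after 0.5, 1, 2, 4, 8, 12 and 24 h, with 3 arrays for each medium and time, 48 in all. The labels name no genotype or ecotype and do not say that the 3 replicates came from separate cultures. P-values therefore cover only the spread among these arrays, which may be technical in part. The deviations of 46 of 48 arrays from their group means correlated best on average with arrays of the same replicate number. The main fit leaves this out, and a fit with the replicate number as a block, which adds calls, is given near the end. One array, ACC replicate 3 at 1 h, is called ACC by its title and description and auxin by its source name and agent fields.

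Signals are on a log2 scale, each difference is the ACC mean less the control mean with its standard error (SE), and adjusted p-values come from limma with Benjamini-Hochberg adjustment over 22739 probe sets at a threshold of 0.05. ACC replicate 3 at 0.5 h stood apart, with a median correlation with the other arrays of 0.944 where the next lowest array had 0.965. Of 11 genes chosen as root markers, the annotation used here matched 1 to a probe set, the root hair gene EXPA7. Its signals ran from 6.73 to 10.29 on ACC and from 8.33 to 9.86 on control medium. EXPA7 itself passed an F test of ACC against control over the 7 later times (adjusted p = 0.0307) and differed most at 0.5 h (-1.02 ± 0.37, adjusted p = 0.213). That difference includes the array that stood apart. Of 7 shoot markers, LHCB4.2 and RCA were matched. Their summed signal ranged from 13.89 to 16.35 on ACC and from 13.30 to 16.06 on control medium. Both rose on ACC at 12 h, LHCB4.2 by 0.65 ± 0.19 (adjusted p = 0.0329) and RCA by 1.32 ± 0.28 (adjusted p = 0.00285). The GAPDH control probe sets, whose 3' minus 5' signal grows with RNA degradation, differed more on ACC at 7 of 7 times after transfer, by 0.294 on average (time means from 0.867 to 1.205 on ACC and from 0.573 to 0.817 on control medium). The same measure differed less for the actin and ubiquitin controls, by 0.092 and 0.076 on average, each higher on ACC at 6 of 7 times. The part of these differences in the results below was not tested beyond a fit that holds the GAPDH difference as a covariate. That fit is given where it ended or added a call.

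Of the 47 genes, 7 (14.9%) passed the test at 1 or more times after transfer, where 10.4% of all probe sets did. Higher on ACC were UGT71C3, UGT71C5, UGT76B1 and UGT84B1 (4 genes, 8.51%), against 5.11% of all probe sets that were higher at some time. Lower were UGT71B1, UGT84A1 and UGT84A4 (3 genes, 6.38%), against 5.26% of all probe sets. An F test over the 7 times together passed 9 genes (19.1%), against 13.3% of all probe sets. These were UGT71B1, UGT71C3, UGT71C5, UGT76B1 and UGT84A4 again, with UGT71C2, UGT73D1, UGT80B1 and UGT85A4, which passed at no single time. Without the array that stood apart the F test passed 10 genes, UGT76C1 being added (adjusted p = 0.0445), and without the array with the auxin label it passed 8, UGT71C2 being lost (adjusted p = 0.0919). With the GAPDH covariate it passed 3, of which UGT71C3 and UGT71C5 were among the 9. Without all arrays of 1 replicate number it passed 2 to 6 genes, and UGT71C3 alone of the 9 passed in each of these fits. By either test 11 genes (23.4%) passed, against 14.4% of all probe sets, and 36 did not.

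All calls came at 4 h or later. At 0, 0.5, 1 and 2 h limma called 0 of the 47 genes, where 0.0%, 0.246%, 0.277% and 0.391% of all probe sets were called. Before adjustment, 1, 11, 5 and 4 of the 47 had p under 0.05 at those times, against 1.42%, 13.3%, 7.96% and 7.82% of all probe sets. At 4, 8, 12 and 24 h 9, 8, 11 and 7 of the 47 did, against 14.6% to 17.1% of all probe sets. The 0.5 h count includes ACC replicate 3, the array that stood apart, and was not taken again without it. Without that array 7 genes differed by 0.5 or more at 0.5 h, where 12 did with it. Only UGT76B1 was called at 4 h (2.13%, against 4.18% of all probe sets). The test passed 3 genes at 8 h (6.38%, against 4.89%), 3 at 12 h (6.38%, against 5.43%) and 4 at 24 h (8.51%, against 5.44%). These shares rest on 1 to 4 genes each. With the 0 h difference subtracted, 1 of these 11 calls passed, that of UGT71C3 at 12 h (adjusted p = 0.0256).

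**Figure D1:**
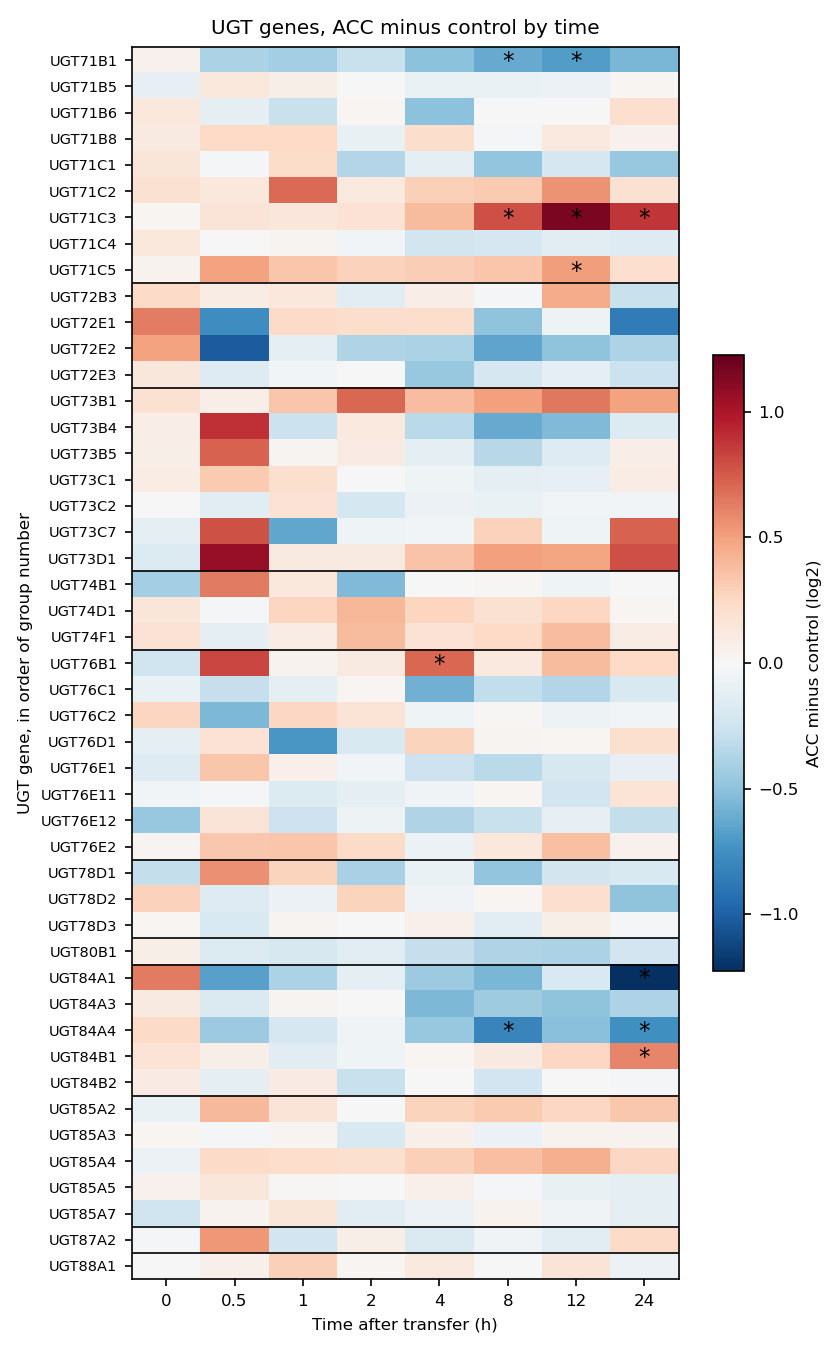
ACC minus control (log2) for the 47 UGT genes (rows, in order of group number, with lines between groups) at the 8 times after transfer (columns, in h). Red is higher and blue lower on ACC, and stars mark the 11 differences past the test, all at 4 h or later and all in UGT71B1, UGT71C3, UGT71C5, UGT76B1, UGT84A1, UGT84A4 and UGT84B1.

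The 47 genes did not shift as a whole. Their median difference lay between -0.05 and 0.07 at all 8 times, and that of all probe sets between -0.02 and 0.01. Members were spread more widely than the array. The median size of a difference, whatever its sign, was 0.21 for UGT genes and 0.12 for all probe sets at 12 h, and it was already 0.12 against 0.08 at 0 h. For 15 UGT genes (31.9%) all ACC arrays at 24 h lay on one side of all control arrays, 4 above and 11 below, against 22.0% of all probe sets. At 0 h this held for 2 genes (4.26%), against 6.83% of all probe sets.

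Some genes kept the same direction through the time course. Higher on ACC at 7 of 7 times after transfer were 7 genes (14.9%, against 7.64% of all probe sets), namely UGT71C2, UGT71C3, UGT71C5, UGT73B1, UGT73D1, UGT76B1 and UGT85A4. Lower at 7 of 7 were 6 genes (12.8%, against 9.12%), namely UGT71B1, UGT72E2, UGT72E3, UGT80B1, UGT84A1 and UGT84A4. Without the array that stood apart and the one with the auxin label, 5 of the 7 and 4 of the 6 kept their direction at all times. Those that did not were UGT73D1, UGT76B1, UGT72E2 and UGT72E3. The share of all probe sets was not taken for that setting. No gene passed the F test of a difference between the 7 times (0 of 47, against 0.699% of all probe sets). The lowest adjusted p was 0.138, for UGT71C3, and 1 gene had an unadjusted p under 0.05. On control medium, 0 of 47 genes passed the limma F test of a change from 0 h, and 0.0% of all probe sets did, while 3 had an unadjusted p under 0.05.

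**Figure D2:**
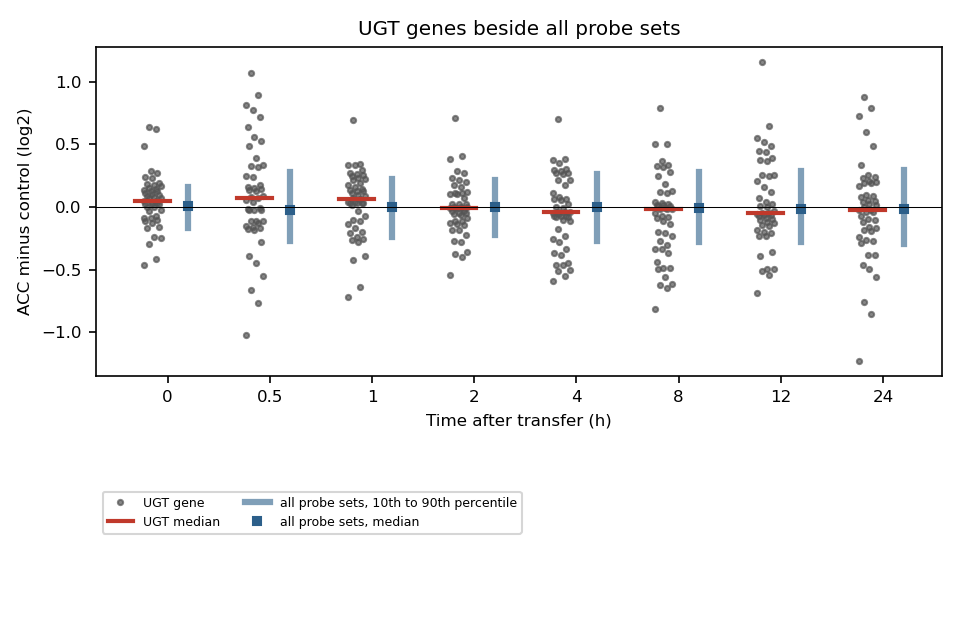
ACC minus control (log2, vertical axis) at each time after transfer (h). Dots are the 47 UGT genes and the red bar their median. The blue bar spans the 10th to 90th percentile of all 22739 probe sets and the square marks their median. UGT medians stay between -0.05 and 0.07, and single genes reach 1.16 at 12 h and -1.23 at 24 h.

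Among the UGTs that act on salicylic acid and related molecules, 2 of 4 measured genes rose and none fell, where 5.11% of all probe sets rose at some time. UGT71C3 (AT1G07260), which glucosylates methyl salicylate, the mobile methyl ester of salicylic acid, had the lowest adjusted p of the 47 genes. At 12 h its signals were 8.92, 8.99 and 9.52 on ACC and 7.89, 8.11 and 7.95 on control medium. All 3 ACC arrays lay above all 3 control arrays, and the difference was 1.16 ± 0.20 (2.23-fold, adjusted p = 0.000156). It was called at 8 h too (0.79 ± 0.20, adjusted p = 0.0107) and at 24 h (0.88 ± 0.20, adjusted p = 0.00423). Its ACC signals at 24 h were 9.14, 8.60 and 9.22, and its control signals 8.08, 8.08 and 8.18. At 0 h the media differed by 0.02 ± 0.20. The calls at 12 h and 24 h held without any 1 of their 6 arrays (adjusted p from 0.000368 to 0.00462 and from 0.00156 to 0.0499), whereas that at 8 h was lost without ACC replicate 3 (0.152) or control replicate 3 (0.0598). The 24 h call was lost without replicate 1 (0.178) or 3 (0.0529) of all groups and kept without replicate 2 (0.0107). In the fits without replicate 1 or 3 the 12 h call held (0.0185 and 0.0142). In bulk root RNA, a change in the number of cells of a type and a change in RNA per cell cannot be told apart.

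UGT76B1 (AT3G11340) attaches glucose to isoleucic acid, salicylic acid and N-hydroxypipecolic acid, and so lowers the active forms of these defence signals. At 4 h its signals were 10.63, 10.57 and 10.82 on ACC and 10.01, 9.93 and 9.98 on control medium, with no overlap and a difference of 0.70 ± 0.21 (adjusted p = 0.048). Its largest difference came at 0.5 h, with 10.95, 10.72 and 11.06 on ACC and 10.24, 10.03 and 10.02 on control medium. That difference of 0.81 ± 0.21 did not pass (adjusted p = 0.078) although the arrays did not overlap, and it was 0.74 ± 0.24 without the ACC array that stood apart (adjusted p = 0.606). At 0 h the UGT76B1 arrays did not overlap either, with ACC below control (-0.25 ± 0.21). The gene passed the F test over the 7 times (adjusted p = 0.0123), but not with the GAPDH covariate (0.0759). The call at 4 h was lost without any 1 of its 6 arrays (adjusted p from 0.0743 to 0.184) and with the GAPDH covariate (adjusted p = 0.152), while the GAPDH difference averaged 0.984 on ACC and 0.674 on control medium at that time.

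The other measured genes for these acceptors did not pass in the main fit. UGT74F1, which makes salicylic acid glucosides, differed most at 2 h (0.39 ± 0.15, adjusted p = 0.423). With the GAPDH covariate UGT74F1 passed at 12 h (0.46 ± 0.14, adjusted p = 0.0421, against 0.17 without the covariate). It then also passed the F test (adjusted p = 0.0181, against 0.153). UGT76D1, which glucosylates dihydroxybenzoic acids formed from salicylic acid, differed most at 1 h (-0.72 ± 0.26, adjusted p = 0.365). Without ACC replicate 1 at 1 h, the difference of UGT76D1 was -1.10 ± 0.26 (adjusted p = 0.0364). The ACC signals of UGT76D1 were then 6.61 and 6.53, with 7.70 on the array left out, and its control signals were 8.14, 7.21 and 7.64. The lower 2 of these ACC arrays include the one with the auxin label.

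For abscisic acid, 1 of 3 measured genes rose, against the same 5.11% of all probe sets. UGT71C5 (AT1G07240), which forms the inactive glucose ester of abscisic acid, had 9.21, 9.48 and 9.53 on ACC and 8.74, 9.13 and 8.80 on control medium at 12 h. The difference was 0.52 ± 0.14 (adjusted p = 0.0235). This gene was higher on ACC at every time after transfer, without overlap of the arrays from 0.5 to 12 h, and its F test gave an adjusted p of 0.000803. At 1 h, for example, its signals were 9.48, 9.46 and 9.26 on ACC and 9.02, 9.12 and 9.03 on control medium. At 24 h they overlapped, with 9.14, 9.16 and 9.45 on ACC and 9.04, 9.22 and 8.89 on control medium. The call at 12 h was kept without ACC replicate 1 (adjusted p = 0.0198) or control replicate 2 (0.0117) and was lost without any other array of that time (0.0887 to 0.149). At 0.5 h the difference was 0.49 ± 0.14 with all arrays and 0.22 ± 0.12 without ACC replicate 3.

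The remaining genes of this role, UGT71B6 and UGT71B8, did not pass. UGT71B6 differed most at 4 h, where its arrays did not overlap, with 5.64, 5.79 and 5.57 on ACC and 6.18, 6.08 and 6.25 on control medium (-0.51 ± 0.16, adjusted p = 0.0706). All its 48 signals lay under the 40th percentile of all values on the arrays. UGT71B8 differed most at 0.5 h (0.25 ± 0.11, adjusted p = 0.3), and by 0.10 ± 0.11 without the array that stood apart.

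Of the auxin UGTs, 1 of 2 measured rose, against 5.11% of all probe sets. UGT84B1 (AT2G23260), which makes the glucose ester of the auxin indole-3-acetic acid, was higher at 24 h by 0.60 ± 0.18 (adjusted p = 0.0475). Its arrays overlapped there, with 6.27, 6.45 and 7.28 on ACC and 5.82, 6.45 and 5.92 on control medium. The ACC array at 7.28 was the only 1 of all 48 above the 40th percentile of the arrays' values, and without it the difference was 0.29 (adjusted p = 0.493). With the GAPDH covariate it was 0.42 ± 0.20 (adjusted p = 0.268), at a time when GAPDH probe sets differed by 1.205 ± 0.191 in ACC roots and by 0.703 ± 0.355 in control roots (SD, n = 3 each). UGT74D1, which acts on oxidised auxin, differed most at 2 h (0.41 ± 0.18, adjusted p = 0.535).

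None of the 3 measured cytokinin UGTs passed. UGT76C1, which N-glucosylates cytokinins, had 7.13, 7.23 and 7.36 on ACC and 7.87, 7.75 and 7.87 on control medium at 4 h. Its arrays did not overlap there, and the difference was -0.59 ± 0.19 (adjusted p = 0.0759). UGT76C2, its adjacent gene with the same activity, differed most at 0.5 h (-0.55 ± 0.22, adjusted p = 0.263), and UGT73C1, which forms cytokinin O-glucosides in vitro, at the same time (0.32 ± 0.14, adjusted p = 0.302). Without the array that stood apart these differences were -0.37 ± 0.24 and 0.26 ± 0.16.

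**Figure D3:**
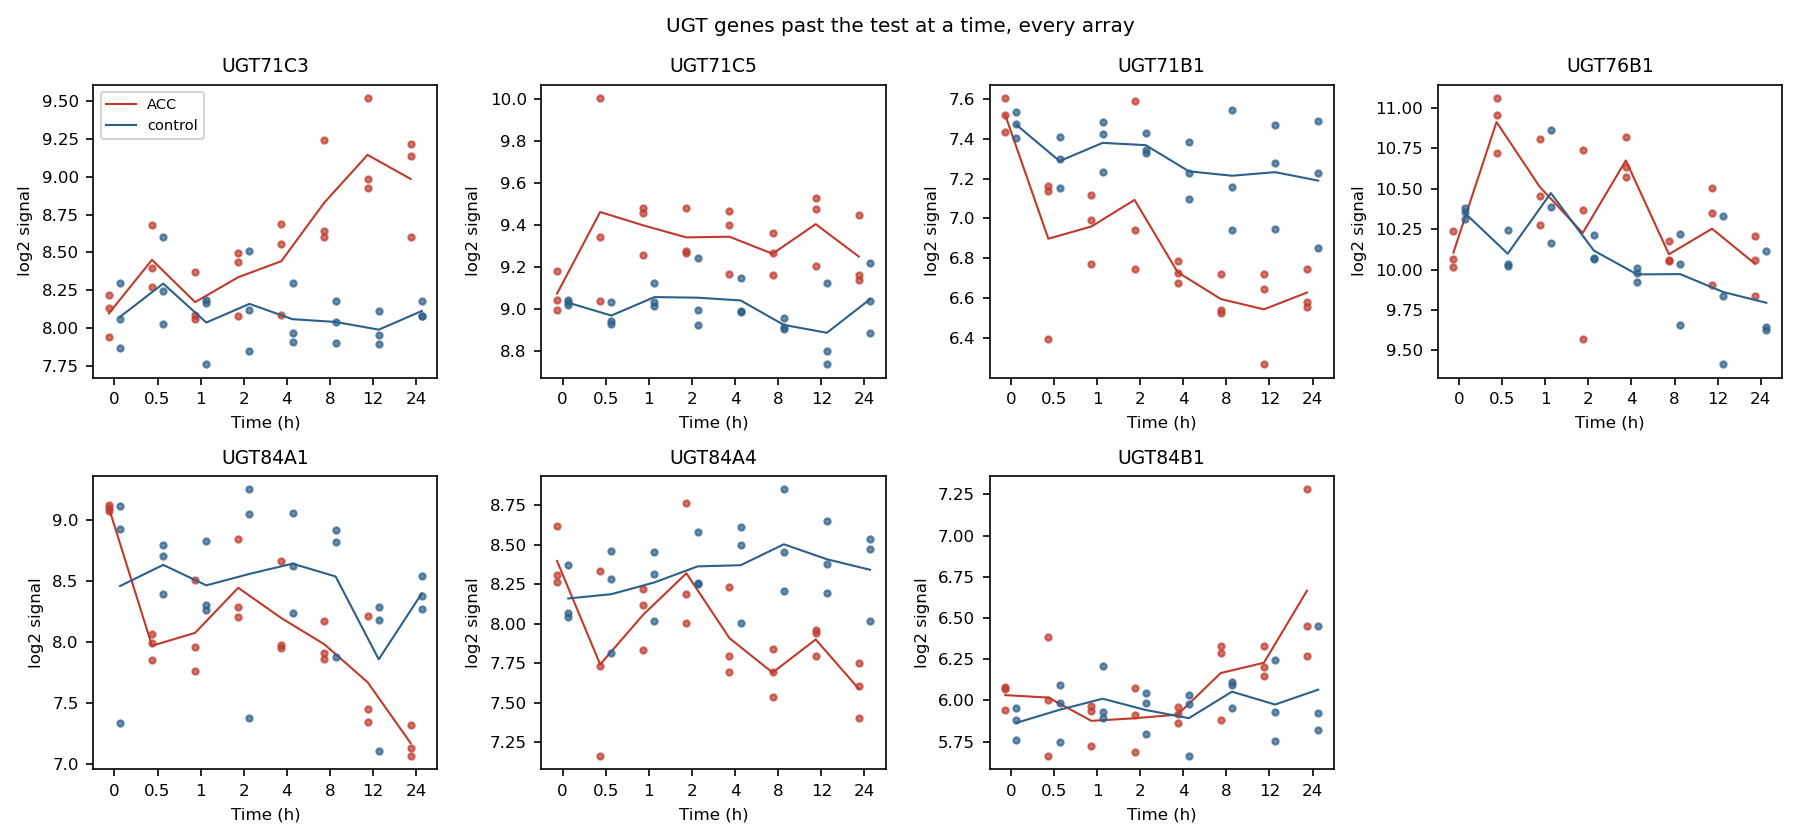
Log2 signal (vertical axis) of every array by time after transfer (h) for the 7 UGT genes past the test at a time. Dots are single arrays and lines the means of 3 arrays, with ACC in red and control medium in blue. The ACC arrays of UGT71C3 reach 8.60 to 9.52 from 8 h on, above all control arrays of the same times, and those of UGT84A1 fall to 7.07 to 7.32 at 24 h.

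UGTs of the phenylpropanoid pathway, which feeds lignin and soluble phenolic esters, were lower on ACC where they passed. Of 7 measured genes in this role, 2 fell and 0 rose, where 5.26% of all probe sets fell at some time. UGT84A1 (AT4G15480), which makes glucose esters of hydroxycinnamic acids, had the largest fall of the 47 genes. At 24 h it had 7.13, 7.32 and 7.07 on ACC and 8.54, 8.27 and 8.38 on control medium, a difference of -1.23 ± 0.38 (2.34-fold lower, adjusted p = 0.0485). The arrays did not overlap at 0.5 h either, with 7.85, 7.99 and 8.06 on ACC and 8.79, 8.40 and 8.71 on control medium. At 12 h they did overlap, with 7.45, 8.22 and 7.35 on ACC and 8.18, 8.29 and 7.11 on control medium. At 0 h, UGT84A1 was at 9.10, 9.12 and 9.07 on ACC and at 9.11, 8.93 and 7.33 on control medium, where a single low array gave a difference of 0.64. Without any 1 of the 6 arrays at 24 h the call was lost (adjusted p from 0.0693 to 0.181), with differences from -1.30 to -1.15, and its F test over the 7 times did not pass (adjusted p = 0.139).

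UGT84A4 (AT4G15500), of the same activity, was lower at 8 h (-0.81 ± 0.22, adjusted p = 0.0238) and at 24 h (-0.76 ± 0.22, adjusted p = 0.038). Its 8 h signals were 7.70, 7.54 and 7.84 on ACC and 8.21, 8.45 and 8.85 on control medium. Those at 24 h were 7.75, 7.40 and 7.60 on ACC and 8.54, 8.01 and 8.47 on control medium. The groups overlapped at neither time, and the F test passed (adjusted p = 0.00313), but not with the GAPDH covariate (0.279) or without replicate 2 of all groups (0.203). With the GAPDH covariate the differences were -0.51 ± 0.20 at 8 h and -0.37 ± 0.21 at 24 h and did not pass (adjusted p = 0.163 and 0.372). The GAPDH difference itself averaged 1.12 on ACC and 0.732 on control medium at 8 h. Leaving out single arrays kept the 8 h call without ACC replicate 3 or control replicate 1 and the 24 h call without ACC replicate 1 or control replicate 2, and lost it in the other cases (adjusted p from 0.0616 to 0.2).

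UGT84A3, between these genes in chromosome order, had lower mean signals on ACC from 4 h on but was not called. With a mean signal of 6.46, UGT84A3 lay above the 40th percentile of the arrays' values on only 2 of all 48 arrays. Its largest difference was -0.55 ± 0.20 at 4 h (adjusted p = 0.125). At 12 h the arrays did not overlap, with 5.98, 6.27 and 6.15 on ACC and 6.50, 6.91 and 6.48 on control medium. Its F test stood just outside the threshold (adjusted p = 0.055). The adjacent genes UGT84A1, UGT84A3 and UGT84A4 are close copies, so probes designed for one may bind transcripts of another, although none of the 47 probe sets carries the suffix by which the array's design marks shared probes.

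The monolignol UGTs UGT72E1, UGT72E2 and UGT72E3, which glucosylate the alcohols from which lignin is made, did not pass. UGT72E2 was lower on ACC at 7 of 7 times and furthest at 0.5 h, with 10.53, 10.55 and 9.14 on ACC and 11.29, 11.03 and 10.96 on control medium (-1.02 ± 0.36, adjusted p = 0.205). The arrays did not overlap, but the lowest one is the array that stood apart, and without it the difference was -0.55 ± 0.37. At 8 h UGT72E2 again had no overlap, with 10.76, 11.24 and 10.66 on ACC and 11.57, 11.60 and 11.42 on control medium. UGT72E1 differed most at 24 h (-0.86 ± 0.54, adjusted p = 0.46), where its signals were 9.70, 8.92 and 9.14 on ACC and 9.87, 10.43 and 10.03 on control medium, and UGT72E3 at 4 h (-0.47 ± 0.18, adjusted p = 0.164). UGT72B1, which the array lists under the symbol GT72B1 and which the family rule therefore left out, differed most at 1 h (-0.57 ± 0.21, adjusted p = 0.406) and passed the F test (adjusted p = 0.00801).

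Flavonoid, glucosinolate and stress-related UGTs held no call at any time. Of the flavonoid genes, UGT78D1, a rhamnosyltransferase, differed most at 0.5 h (0.56 ± 0.28, adjusted p = 0.387). UGT78D2, a glucosyltransferase, had 9.11, 9.13 and 9.13 on ACC and 9.59, 9.69 and 9.57 on control medium at 24 h, without overlap, but its difference of -0.49 ± 0.21 did not pass (adjusted p = 0.202). UGT78D3, an arabinosyltransferase, differed by at most -0.19 ± 0.12, at 0.5 h, and UGT79B1, an anthocyanin UGT listed as UF3GT, by -0.20 ± 0.13 at 2 h. UGT74B1, which glucosylates thiohydroximates in the core glucosinolate pathway, differed most at 0.5 h (0.64 ± 0.29, adjusted p = 0.336). Without the array that stood apart its difference was 0.33 ± 0.31.

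The sterol glucosyltransferase gene UGT80B1 (AT1G43620) passed the F test (adjusted p = 0.0141) but not at a single time. It was lower at 7 of 7 times by small amounts, from -0.39 to -0.13, and at 12 h had 7.61, 7.33 and 7.40 on ACC and 7.87, 7.72 and 7.90 on control medium (adjusted p = 0.0713). The related UGT80A2, listed as SGT, differed by at most -0.27 ± 0.15, at 24 h. With the GAPDH covariate the F test of UGT80B1 gave 0.373.

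The stress-responsive genes UGT73B4 and UGT73B5, which take part in redox and pathogen responses and are adjacent, were furthest apart at 0.5 h. UGT73B4 had 10.38, 10.65 and 11.65 on ACC and 10.18, 9.97 and 9.85 on control medium (0.89 ± 0.39, adjusted p = 0.305). UGT73B5 had 8.73, 8.94 and 10.13 on ACC and 8.69, 8.53 and 8.42 on control medium (0.72 ± 0.31, adjusted p = 0.297). In both, the highest ACC array is the one that stood apart, and without it the differences were 0.51 ± 0.42 and 0.29 ± 0.31.

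Some of the early differences of the family rested on that array and others did not. The largest of the 7 differences of a gene fell at 0.5 h for 17 of the 47 genes (36.2%), against 20.0% of all probe sets, and without that array for 10 (21.3%), against 11.3%. At 0.5 h, 12 genes differed by 0.5 or more in either direction, and without ACC replicate 3 this count was 7. The median of the 7 genes of group 73 was 0.72 with it and 0.26 without it. UGT73C7 had 6.22, 6.71 and 8.75 on ACC and 6.38, 6.55 and 6.43 on control medium, and its difference of 0.78 ± 0.39 became 0.01 ± 0.34. UGT87A2, a gene known for its effect on flowering time, had 9.65, 9.65 and 10.75 on ACC and 9.72, 9.31 and 9.44 on control medium, a difference of 0.53 ± 0.36, or 0.16 ± 0.38 without that array. The differences of UGT78D1 (0.56 with it and 0.58 without it) and UGT84A1 (-0.66 and -0.71) were nearly the same.

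Several genes with no listed acceptor passed a test. UGT71B1 (AT3G21750) was lower on ACC at 8 h (-0.62 ± 0.18, adjusted p = 0.0374) and at 12 h (-0.69 ± 0.18, 1.61-fold lower, adjusted p = 0.0165). At 12 h it had 6.27, 6.72 and 6.65 on ACC and 7.28, 7.47 and 6.95 on control medium. The 8 h signals were 6.54, 6.52 and 6.72 on ACC and 7.16, 7.54 and 6.94 on control medium, and at 4 h they were 6.68, 6.73 and 6.79 on ACC and 7.38, 7.23 and 7.10 on control medium. None of these groups overlapped, and the F test gave an adjusted p of 0.000207, or 0.0704 with the GAPDH covariate and 0.177 without replicate 1 of all groups. The 12 h call was lost without ACC replicate 1 (adjusted p = 0.14) or control replicates 1 (0.0719) or 2 (0.109). The 8 h call was kept without control replicate 3 (adjusted p = 0.0244) and lost without any other array of that time (0.0658 to 0.271), and it was lost with the GAPDH covariate (-0.41 ± 0.17, adjusted p = 0.203).

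Another 3 genes of this kind passed the F test and were higher on ACC at 7 of 7 times. UGT73D1 (AT3G53150) had 8.54, 7.78 and 8.91 on ACC and 7.55, 7.10 and 7.36 on control medium at 0.5 h (1.07 ± 0.28, adjusted p = 0.0777). Its signals at 24 h were 8.10, 8.04 and 8.41 on ACC and 7.06, 7.59 and 7.52 on control medium (0.79 ± 0.28, adjusted p = 0.0909). The groups overlapped at neither time, and the 0.5 h difference was 0.82 ± 0.30 without the ACC array that stood apart. UGT71C2 (AT2G29740) differed most at 1 h (0.70 ± 0.20, adjusted p = 0.16), with 8.13, 8.54 and 8.63 on ACC and 7.17, 8.20 and 7.82 on control medium, where the groups overlap. At 12 h UGT71C2 had 8.11, 8.12 and 8.32 on ACC and 7.43, 7.75 and 7.71 on control medium, which do not. Its highest ACC signal at 1 h, 8.63, comes from the array with the auxin label. Without that array the F test of UGT71C2 did not pass (adjusted p = 0.0919). UGT85A4 (AT1G78270) had 7.39, 7.34 and 7.42 on ACC and 6.96, 6.94 and 6.94 on control medium at 12 h (0.44 ± 0.15, adjusted p = 0.0765). The F tests of UGT73D1, UGT71C2 and UGT85A4 gave adjusted p = 0.0122, 0.0344 and 0.0188, and with the GAPDH covariate 0.168, 0.202 and 0.41.

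UGT73B1 had signals higher on ACC at 7 of 7 times but passed no test. At 12 h UGT73B1 had 8.74, 8.77 and 8.65 on ACC and 8.18, 8.20 and 7.85 on control medium, without overlap. Its largest difference was 0.71 ± 0.29 at 2 h (adjusted p = 0.459), where it had 9.07, 8.62 and 8.25 on ACC and 8.09, 8.52 and 7.21 on control medium.

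The 3 members with the highest mean signals among those never called were UGT72E2, UGT74B1 and UGT85A2, with means of 11.09, 10.61 and 10.49. Signals of different probe sets do not rank transcript levels. UGT85A2 differed most at 0.5 h (0.39 ± 0.20, adjusted p = 0.399), with 10.74, 10.53 and 11.19 on ACC and 10.31, 10.60 and 10.37 on control medium. Without the ACC array that stood apart its difference was 0.21 ± 0.22.

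Adjacent family members did not all move together. UGT71C5, UGT71C4 and UGT71C3 follow each other with no other protein-coding gene between them. The outer genes rose on ACC, while UGT71C4 in the middle stayed within -0.23 and 0.04 of control at all 7 times (-0.23 ± 0.13 at 4 h, adjusted p = 0.437). The run of UGT84A1, UGT84A3 and UGT84A4 had lower means on ACC in all 3 genes from 4 to 24 h, with UGT84A3 near the bottom of the signal scale. In the pair UGT84B2 and UGT84B1, the differences at 24 h were -0.02 ± 0.10 and 0.60 ± 0.18. For UGT71C2 and its neighbour UGT71C1 at 12 h they were 0.55 ± 0.20 and -0.21 ± 0.33. Whether neighbours differ from each other was not tested.

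**Figure D4:**
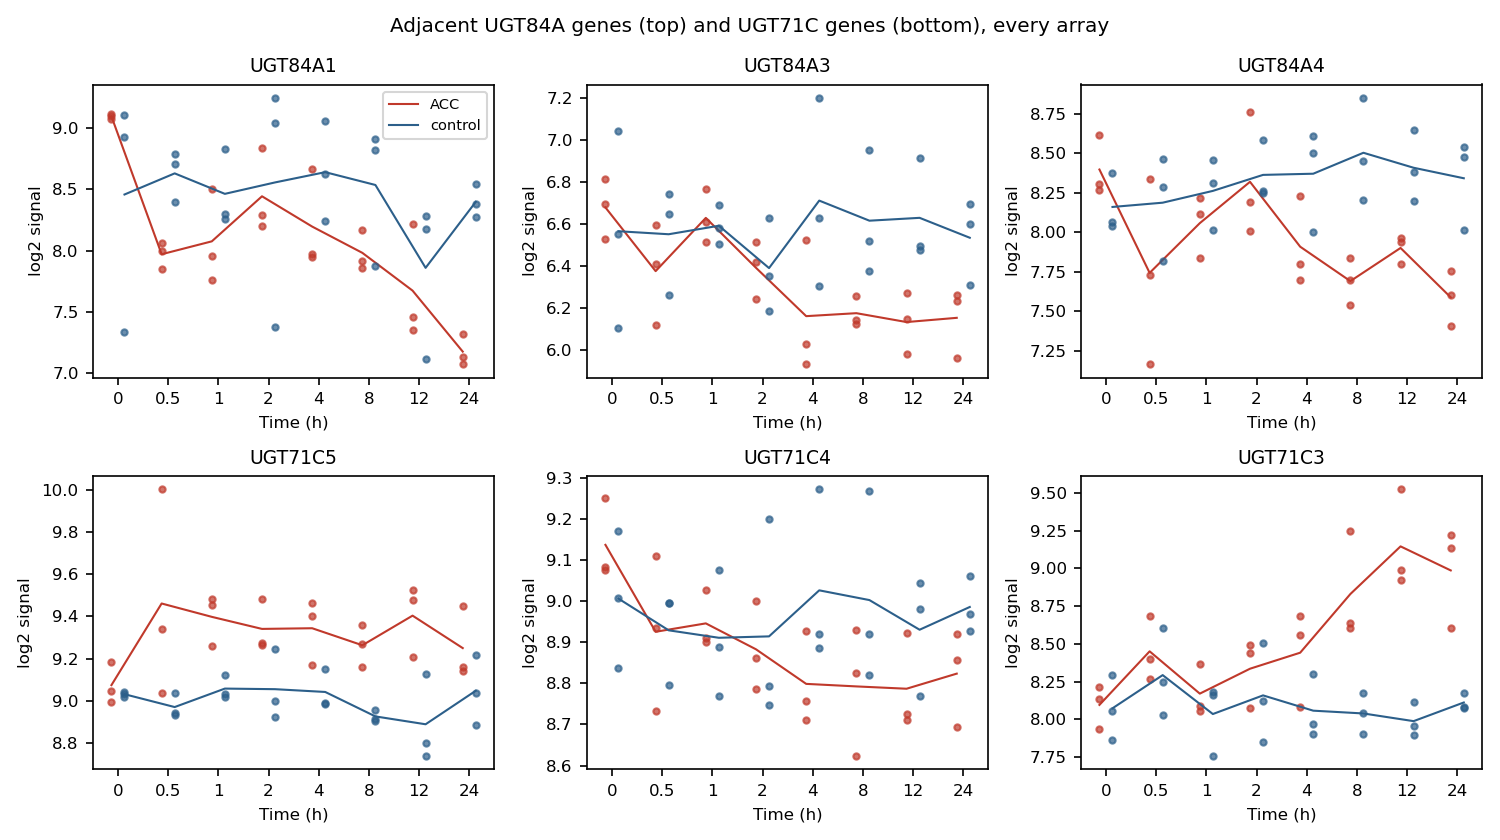
Log2 signal of every array by time after transfer (h) for 2 runs of adjacent genes in chromosome order from left to right, with ACC in red, control medium in blue and lines through means of 3 arrays. In the upper row all 3 UGT84A genes have lower ACC means from 4 h on, with UGT84A3 near the bottom of the signal scale. In the lower row UGT71C5 and UGT71C3 are higher on ACC, and UGT71C4 stays within -0.23 and 0.04 of control after transfer.

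By group number, calls came from groups 71 (3 of 9 genes at a time, 4 by F test), 84 (3 of 5 and 1) and 76 (1 of 8 and 1), where 10.4% of all probe sets passed at a time and 13.3% by F test. Groups 73, 80 and 85 each had 1 gene past the F test and none at a time. The groups 72, 74, 78, 87 and 88 had none by either test. Groups 71 and 84 each held genes that rose and genes that fell. The median of the 5 genes of group 84 was -0.45 at 4 h, -0.44 at 8 h, -0.19 at 12 h and -0.38 at 24 h, against about 0 for all probe sets. Of the 5, 3 are the adjacent UGT84A genes. Only 2 of the 5, UGT84A1 and UGT84A4, had signals above the 40th percentile of all values on at least 3 arrays. The 5 genes of group 85 stayed between -0.19 and 0.44 at all 7 times.

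The remaining members passed no test, and some were near the bottom of the scale. Of the 47, 34 had signals above the 40th percentile of all values on at least 3 arrays, 21 on all 48, and 13 did not reach this. Among the 13 were UGT73C1, UGT73C2, UGT76E1, UGT76E11, UGT76E12, UGT78D3, UGT84B2, UGT85A3 and UGT85A5, which lay under it on all 48 arrays. UGT71B5, UGT76E11, UGT85A3, UGT85A5 and UGT85A7 differed by less than 0.25 in either direction at all 7 times, and UGT88A1 by at most 0.30 ± 0.17, at 1 h. UGT72B3 differed most at 12 h (0.45 ± 0.22, adjusted p = 0.322), UGT76E2 at the same time (0.37 ± 0.18) and UGT71C1 at 8 h (-0.48 ± 0.33, adjusted p = 0.564). At 0.5 h the difference of UGT71C1 was -0.01 ± 0.33 with all arrays and 0.62 ± 0.29 without the ACC array that stood apart.

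Other genes of the pathways that use these acceptors were covered in part. Measured here means that the annotation ties a probe set to that gene alone. It leaves 8730 probe sets unnamed, so a gene without a match may still be on the array. Of 9 auxin conjugation and oxidation genes, 6 were measured, 2 fell and 0 rose, where 5.26% of all probe sets fell at some time and 5.11% rose. The auxin oxidase gene DAO1 was lower at 8 h (-0.82 ± 0.16, adjusted p = 0.00144) and its close relative DAO2 at 12 h (-1.49 ± 0.30, adjusted p = 0.00145). At 0 h the differences of DAO1 and DAO2 were -0.34 and -0.09. GH3.17, which conjugates auxin to glutamate, passed the F test and differed most at 0.5 h (-1.38 ± 0.41, adjusted p = 0.129). That difference includes the array that stood apart. None of 10 cytokinin genes was matched to a probe set in this way. The single measured gene of 7 for salicylic acid (BSMT1), of 10 for flavonoids (DFR) and of 18 for glucosinolates (BCAT4) did not pass at any time, nor did the 2 measured of 17 for phenylpropanoids (HCT and CCR2). The largest of their differences was 1.59 ± 0.95 for BCAT4 at 12 h (adjusted p = 0.468).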

How the data were processed

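Each of the 48 samples is an Affymetrix array hybridised with biotin-labelled root RNA, prepared with a 3' labelling kit per the labels' protocols. The deposited table holds 1 column of values per array, read here as log2 signals from their range. How the authors summarised and normalized probes, and the log base, is not given in the sources used here. Array means agreed at 7.70 and medians ranged from 7.43 to 7.64, so differences are relative to the average probe set. No arrays were identical.

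Of 22810 probe sets, 64 controls and 7 with an exact 0 were left out, leaving 22739. The platform annotation gave 13513 a single symbol and 503 several, and 8730 are unnamed. A gene's probe set is the one with the highest mean. RefSeq (TAIR10.1) was used for names and gene order.

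One mean per group was fitted to 48 arrays with limma 3.58.1 (R 4.3.3; 32 residual and 3.99 prior degrees of freedom). The median SE was 0.140, limited by 3 arrays per group. Contrasts and F tests were adjusted by Benjamini-Hochberg, threshold 0.05. The model was also run on simulated data with independent noise. Those data held no effect shared by a replicate number and no array that stood apart, so the run cannot speak to these.

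Members, role lists and alternatives were chosen with earlier results of these data known. Named are genes past the test, role-list genes, the 3 brightest not past the test, and up to 3 called genes in each direction per pathway list; others were chosen after their values were seen.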

Additional observations from a re-analysis of the deposited data

Results flagged for a closer look

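For UGT71C3, the ACC difference at 12 h minus that at 0 h was 1.14 ± 0.28 (limma, adjusted p = 0.0256), so the difference between media at 12 h exceeded the one present at transfer. At 12 h all 3 ACC arrays lay above all 3 control arrays, and at 0 h the groups overlapped.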

How the results depend on the processing

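The 11 calls of single genes took 186 values under the alternatives. Of these 100 stayed past the threshold, 86 kept their direction without passing, and 0 reversed. UGT71C3 at 12 h passed under every alternative run (adjusted p from 2.6e-05 to 0.0256). Counts of genes kept within 1.5 times of the reported ones in 126 of 173 values. These include the low-value filter and the use of all UGT probe sets at every time. Most of the 126 are counts reported as 0 that stayed at 0, so the pooled figure says little about the other counts. Of the counts reported above 0, those at 4, 8 and 24 h moved further in most alternatives. Those at 12 h and in the F test over the times kept within 1.5 times in most.

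Counts moved further in the following cases. At 4 h (1 gene as reported) quantile normalization, the replicate block and a fit on the 6 arrays of that time each gave 2, and the GAPDH covariate, subtraction of the 0 h difference and adjustment over the 8 contrasts together gave 0 each. Subtraction of the 0 h difference also gave 0 at 8 h, 1 at 12 h and 0 at 24 h (reported 3, 3 and 4). The GAPDH covariate gave 1 at 8 h, 2 at 24 h and 3 in the F test over the times (reported 9), which then were UGT71C3, UGT71C5 and UGT74F1. Joint adjustment gave 2 at 0.5 h and 1 at 24 h.

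Leaving out one replicate number at all times or a single array of the time gave 0 to 3 genes at 0.5 h, 0 to 1 at 1 h, 0 to 2 at 4 h, 1 to 2 at 8 h, 1 to 3 at 12 h, 0 to 4 at 24 h, and 2 to 6 in the F test without a replicate number. At 0.5 h the count of 3 arose without ACC replicate 2. F tests without the arrays in doubt were added after seeing the data and gave 8 to 10 genes.

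The labels do not say what a replicate number marks. Same-number pairs of a time correlated above 0.1 in their deviations in 16 of 24 cases and not in all (-0.24 to 0.40), so the numbers were not taken as pairs. Yet 46 of 48 arrays correlated best on average with arrays of their own number. This points to something shared within a number, which the main fit leaves out. The replicate block kept all 11 calls. It added UGT84A3 at 4 h (adjusted p = 0.0159) and 12 h (0.0276), UGT80B1 at 8 h (0.0148) and 12 h (0.00874), UGT71C2 (0.0477) and UGT85A4 (0.03) at 12 h, and the F tests of UGT84A3 (0.00119), UGT84A1 (0.0235) and UGT72E2 (0.0211). It gave 7 genes at 12 h, 12 in the F test over the times and 1 in the test of a difference between times.

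Each group has 3 arrays, and genes near the bottom of the signal scale, such as UGT84B1, UGT71B6 and UGT84A3, have little range in which to fall. The causes of the changed counts were not tested.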
